A study of Homo sapiens with 6 samples.

Results

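DEAD-box and DEAH-box proteins are RNA helicases named after the amino acid letters of one of their conserved motifs. They use ATP to unwind RNA duplexes or to strip proteins from RNA. Different members act in ribosome assembly, splicing, mRNA export, translation and RNA decay. In growing cells the nucleolar and spliceosomal members are expressed broadly, whereas a few members are restricted to the germline. The genes described here are all rows of the deposited table whose symbol begins with DDX or DHX and a number, without DDX20, DDX58 and DHX58. There were 48 such genes among 12793 rows, 33 of them DDX and 15 DHX genes. GENCODE 29 holds 52 protein-coding symbols of this form with the same exceptions, and the other 4 (DDX4, DDX25, DDX43 and DDX53, all with germline expression) were not among the rows analysed here.

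Their levels come from RNA-seq of HCT15, a human line grown from a colorectal tumour. There were 3 control libraries (sgctrl, genotype WT) and 3 sgRBM15 libraries, whose labels give a CRISPR/Cas9 knockout of RBM15; Cas9 cuts DNA where its guide RNA pairs. RBM15 binds RNA and helps to place the methyltransferase that makes m6A, and the question was how its loss alters transcripts of the tumour cells. The labels name no other agent or time point, and they do not say whether a library came from a clone, a pool or a separate culture, so the p-values reflect no more than library-to-library spread, possibly technical.

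Values are FPKM, fragment numbers divided by the length of the transcript and by a library total, and so allow levels of different genes to be compared. Differences are on the log2(FPKM + 1) scale, labelled knockout minus control. "Rose" and "fell" mean an adjusted p of at most 0.05 in the limma fit over the 11451 genes that averaged 1 FPKM or more, after Benjamini-Hochberg adjustment. RBM15 itself stood at 5.51 to 5.97 FPKM in the control libraries and at 17.3 to 18.5 FPKM in the labelled knockouts (log2 difference 1.48, SE 0.049, limma adjusted p = 3.88e-06), so its mRNA was higher and not lower in the libraries labelled knockout, and every direction below rests on the labels. Of 10 markers of colon epithelium 7 were listed, with a summed level of 3803 to 3896 FPKM in the control libraries and 3481 to 3621 FPKM in the labelled knockouts; KRT20, CDX1 and LGALS4 were not among the rows analysed here. Of these 7, 5 fell (VIL1, CDX2, EPCAM, KRT19 and KRT18), KRT8 rose and CDH1 did not pass the test. The log2 differences were -1.89 for VIL1, -1.06 for CDX2, -0.36 for KRT19, -0.35 for EPCAM, -0.15 for KRT18, -0.05 for CDH1 and 0.11 for KRT8. None of 3 endothelial markers was listed. Of 6 fibroblast markers only COL1A1 was listed, at 0.835 to 1.41 FPKM over the 6 libraries, and of 5 leukocyte markers only CD68, at 2.66 to 3.08 FPKM in the control libraries and 6.03 to 7.29 FPKM in the labelled knockouts. The part of CD68 and of the epithelial markers in the results below was not tested, and in bulk RNA fewer cells of a type and less RNA per cell cannot be told apart.

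Most helicase genes were higher in the libraries labelled knockout. Of the 47 members that passed the filter, 32 rose, 4 fell and 11 did not pass the test. The 36 that changed made up 76.6%, where 54.5% of all tested genes changed. Over all tested genes 25.3% rose and 29.2% fell, against 68.1% and 8.51% of the helicase genes. The values of the 2 groups did not overlap, with the labelled knockout higher, for 33 of the 47 (70.2%, against 29.6% of all tested genes), and with the labelled knockout lower for another 4 (8.51%, against 33.4% of all tested genes). The median log2 difference of the members was 0.20, beside -0.018 for all tested genes. Changes were modest in size: none of the 47 differed by 2-fold, a size that 1.62% of all tested genes reached with a call. A rise of at least 0.3 on the log2 scale was seen in 18 of the 47, and in 12.6% of all tested genes. Summed over all 48 genes, the level was 1928, 1912 and 1911 FPKM in controls 1 to 3 and 2206, 2159 and 2250 FPKM in labelled knockouts 1 to 3.

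The median log2 difference was 0.195 for DDX and 0.198 for DHX genes: 24 of 32 tested DDX genes rose and 3 fell, and 8 of 15 DHX genes rose and 1 fell. Members were more abundant than the typical gene (median of the mean levels 25.9 FPKM, against 12.7 FPKM over all tested genes) and had a smaller spread (median SD within a group 0.042 against 0.073 on the log2 scale). The part of level and spread in these counts was not tested. Their median GC content was 48.4%, the same as over all tested genes, and their longest transcripts had a median of 4380 bases against 3623.

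**Figure D1:**
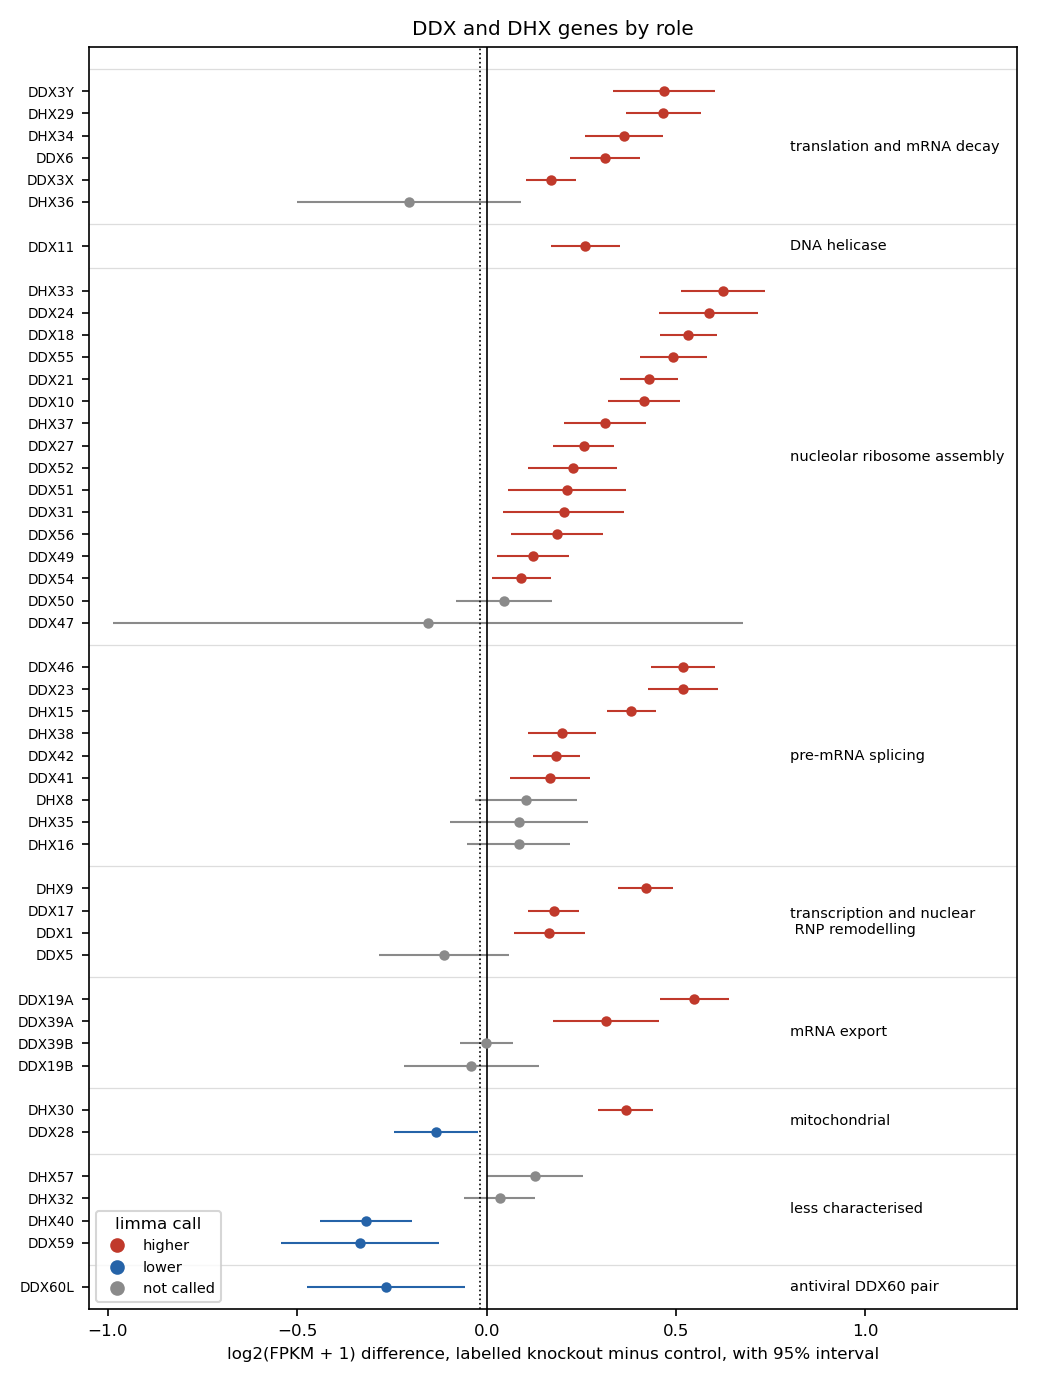
Log2(FPKM + 1) difference (x axis, labelled knockout minus control) of each of the 47 tested DDX and DHX genes (y axis), grouped by role. Points are limma estimates with 95% intervals, red for genes that rose, blue for genes that fell and grey for genes that did not pass the test; the dotted line is the median of all tested genes, -0.018. Of the 16 nucleolar genes 14 are red, while DDX47 has the widest interval of all.

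**Figure D2:**
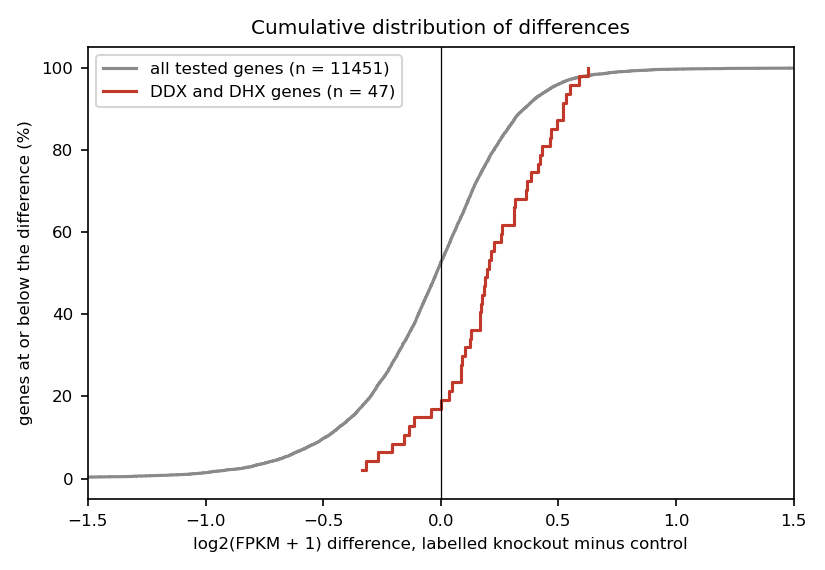
Cumulative share of genes (y axis, %) at or below each log2(FPKM + 1) difference (x axis) for all 11451 tested genes and for the 47 tested DDX and DHX genes. The helicase curve lies to the right of the curve of all genes over most of its range, with medians of 0.20 and -0.018, and its extremes are -0.335 and 0.624.

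Promoter sequences were read for the members because many of them moved the same way. RefSeq promoter windows (GRCh38.p14, 250 bases before to 50 after the first listed start of each gene) matched 44 of the 48 members. The ETS core CCGGAAG, searched on both strands, was in 21 of the 44 windows (47.7%), against 21.1% of 9137 windows of tested genes and 10.7% of all 27305 windows. It was in 13 of the 28 matched members that rose and in 8 of the other 16. The stretches below are those of the 4 genes, among the 12 with the largest called differences, that hold the core upstream of the start; capitals mark the core, read 5′ to 3′ on the gene's strand, and CTTCCGG is its reverse complement.
DDX19A (chr16:70346873-70346901, plus strand): gctcaccgccgCTTCCGGtccgcgtgagg
DDX46 (chr5:134758721-134758749, plus strand): aagagcggcagCTTCCGGtcggcttttct
DDX3Y (chrY:12905666-12905694, plus strand): ccgaaactgggCTTCCGGtatggaaagtt
DDX21 (chr10:68956099-68956127, plus strand): tcctgcttcccCCGGAAGtgccttgctac

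The core begins 19 bases before the start in DDX19A, 47 in DDX46, 28 in DDX3Y and 60 in DDX21. These distances are from the RefSeq start. In GENCODE 29 DDX19A begins further upstream, at 70346829, so its core lies inside the annotated gene. The core of DDX3Y also lies inside the gene as annotated there, which spans 12904108 to 12920478 on chromosome Y. The cores of DDX46 and DDX21 lie before the annotated genes, which begin at 134758771 and 68956128. Of the other motifs searched on both strands, the E-box CACGTG was in 8 of 44 member windows (18.2%, against 10.6% of the windows of tested genes), in 4 of the 28 genes that rose and 4 of the other 16. The cyclic AMP response element TGACGTCA was in 5 of 44 (11.4% against 3.45%), the NRF1 core in 2 of 44 (4.55% against 2.48%) and CCAAT in 18 of 44 (40.9% against 37.3%). The 5 genes with TGACGTCA were DDX10, DDX19A and DDX51, which rose, DDX28, which fell, and DHX36, which did not pass the test. None of these motifs contains another. A match is a description of the letters only, and the part of base composition was not tested.

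Nucleolar helicases of ribosome assembly were the largest group, and 14 of 16 rose while none fell, with a median log2 difference of 0.24. Counts of this and the other role groups stand beside 68.1% of all tested members and 25.3% of all tested genes that rose. DHX33, a DEAH helicase linked to rRNA transcription by RNA polymerase I, had the largest increase of all members. It stood at 11.4, 11.9 and 11.7 FPKM in controls 1 to 3 and at 17.9, 18.1 and 19.5 FPKM in labelled knockouts 1 to 3. All 3 labelled knockouts lay above all controls, by a ratio of means of 1.59 (log2 difference 0.62, SE 0.047, limma adjusted p = 7.61e-05). DHX33 (ENSG00000005100) lies on the minus strand of chromosome 17 at 5440912 to 5469060 in GRCh38.

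DDX24, a helicase of large ribosomal subunit assembly, was at 25.1, 27.8 and 26.1 FPKM in the control libraries and 42.6, 38.3 and 39.3 FPKM in the labelled knockouts. DDX18, a factor of large subunit assembly with 5 named pseudogenes in GENCODE 29, moved from 36.7, 37.5 and 38.5 FPKM to 55.4, 54.1 and 54.9 FPKM. The groups were far apart in both genes, with ratios of 1.52 (log2 difference 0.59, limma adjusted p = 0.000185) and 1.46 (0.53, adjusted p = 3.76e-05). DDX55, a large subunit factor, gave 16.5, 15.8 and 15.9 FPKM in the control libraries against 22.6, 23.5 and 22.9 FPKM. In DDX10, a small subunit factor, the values were 15.7, 15.6 and 14.9 FPKM against 21.1, 21.1 and 20.3 FPKM. Neither pair of groups overlapped, and the log2 differences were 0.49 (SE 0.038) for DDX55 and 0.41 (SE 0.04) for DDX10.

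DDX21, the most abundant nucleolar member, couples rRNA transcription to processing. Its controls stood at 106.6, 102.8 and 103.9 FPKM and its labelled knockouts at 141.1, 136.7 and 145.1 FPKM. The means were 104.5 ± 1.93 and 141.0 ± 4.2 FPKM (SD, n = 3 each), with a log2 difference of 0.43 (SE 0.032, limma adjusted p = 7.8e-05). DDX21 (ENSG00000165732) lies at 68956128 to 68985073 on chromosome 10 (plus strand), next to its relative DDX50 at 68901278 to 68946847. The remaining nucleolar genes that rose did so by less: DHX37, which releases the U3 small nucleolar RNA from the small subunit precursor, by 0.31, DDX27 by 0.26, DDX52 by 0.23, DDX51 by 0.21, DDX31 by 0.20, DDX56 by 0.19, DDX49 by 0.12 and DDX54 by 0.09 on the log2 scale.

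The 5 smallest of these increases held by narrow margins. DDX51, DDX31, DDX56, DDX49 and DDX54 each lost their call when single libraries were left out, and the nucleolar count then fell from 14 to between 9 and 11 of 16, with 9 without control 3 and 10 without each labelled knockout in turn. The other 9 nucleolar genes that rose kept their calls under each of the 15 alternatives that were run.

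**Figure D3:**
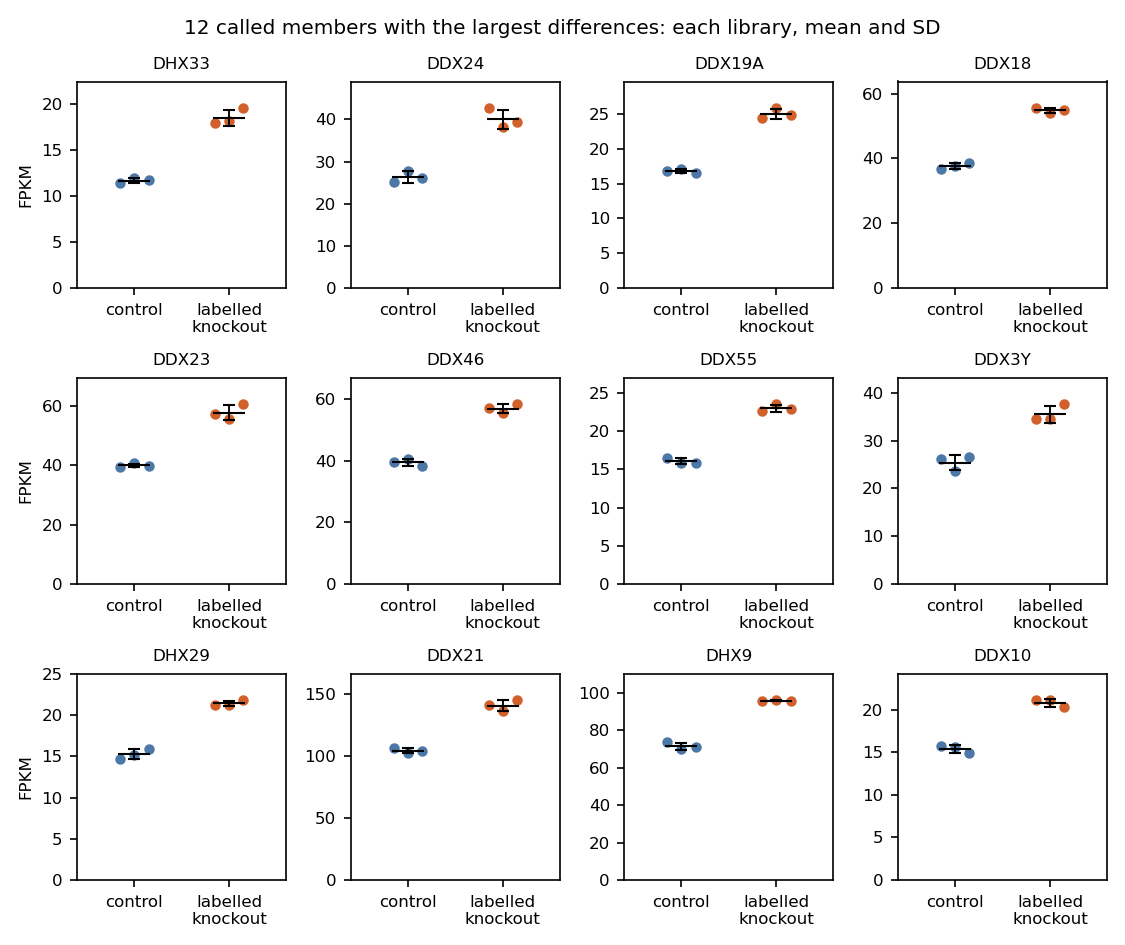
FPKM (y axis, from 0) of each library in the control and labelled knockout groups for the 12 called members with the largest log2 differences. Points are single libraries, and bars are the mean and SD of 3. In all 12 genes the labelled knockout libraries lie above every control, from DHX33 (ratio 1.59) to DDX10 (1.35).

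DDX47 was the exception among the nucleolar genes, with a spread between libraries that no other member approached. Its values were 38.8, 53.1 and 64.0 FPKM in controls 1 to 3 and 56.4, 25.4 and 66.0 FPKM in labelled knockouts 1 to 3. The groups overlapped fully (log2 difference -0.155, 95% interval -0.986 to 0.676, limma adjusted p = 0.733), and the difference turned to 0.256 without labelled knockout 2 and to 0.007 without control 3. In GENCODE 29, 1841 of the 5040 exonic bases of DDX47 (36.5%) also belong to exons of APOLD1, a gene on the same strand of chromosome 12. APOLD1 was listed at 23.2, 10.3 and 3.0 FPKM in the control libraries and at 11.1, 39.2 and 2.48 FPKM in the labelled knockouts. The 2 libraries with the least DDX47 had the most APOLD1, and the 2 with the most DDX47 had the least. The sum of both was 62.1, 63.4 and 67.0 FPKM in the control libraries and 67.4, 64.6 and 68.5 FPKM in the labelled knockouts, and the spread of the sum was small (64.1 ± 2.53 and 66.8 ± 2.02 FPKM). This sum was formed after the values were seen, and it adds levels scaled by different lengths.

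**Figure D4:**
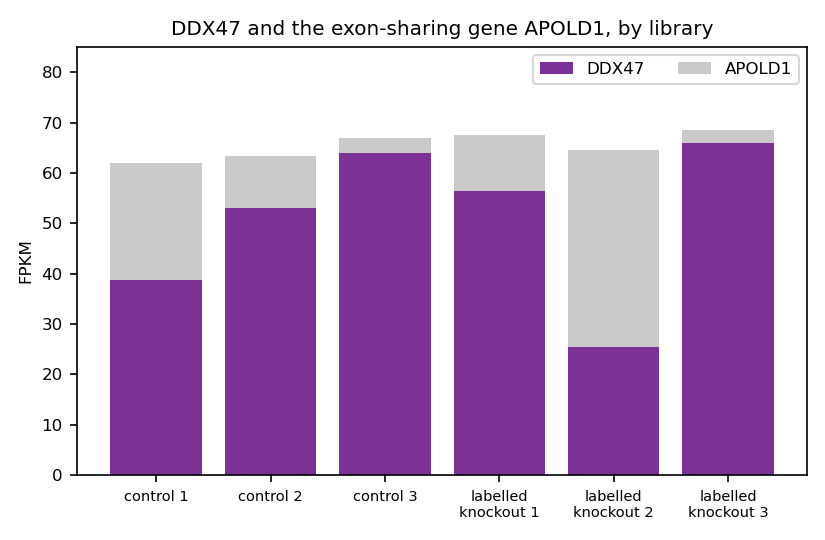
Stacked bars of FPKM (y axis, from 0) of DDX47 and APOLD1 in each of the 6 libraries (x axis). DDX47 ranges from 25.4 to 66.0 FPKM while the total height stays between 62.1 and 68.5 FPKM.

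Helicases of pre-mRNA splicing rose in 6 of 9 cases, beside 68.1% of all tested members, and none fell (median log2 difference 0.18). DDX23, which releases the U1 particle from the 5′ splice site, was at 39.6, 40.7 and 39.7 FPKM in the control libraries and at 57.3, 55.6 and 60.6 FPKM in the labelled knockouts. DDX46, which acts when the U2 particle joins the branch site, was at 39.6, 40.5 and 38.3 FPKM against 57.1, 55.4 and 58.3 FPKM. These genes had almost the same levels and the same log2 difference of 0.52 (limma adjusted p = 8.18e-05 and 5.83e-05), and in each the groups stood well apart. DHX15, which takes the spliceosome apart after splicing, was the most abundant of the group at 90.8, 91.9 and 90.0 FPKM in the control libraries and 119.5, 116.6 and 120.2 FPKM in the labelled knockouts. It rose by 0.38 on the log2 scale (SE 0.027, limma adjusted p = 6.04e-05).

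DHX38, needed before the second catalytic step, rose by 0.20, the U2-associated DDX42 by 0.18 and DDX41, a gene mutated in inherited myeloid cancers, by 0.17 (log2). Without control 1 that of DDX41 no longer passed (0.146, limma adjusted p = 0.056). The catalytic activation helicase DHX16 stood at 22.3 ± 1.76 and 23.7 ± 0.371 FPKM, the mRNA release helicase DHX8 at 13.7 ± 1.01 and 14.7 ± 0.334 FPKM, and DHX35 at 5.43 ± 0.436 and 5.82 ± 0.479 FPKM in the control libraries and labelled knockouts. These 3 did not pass the test, and their 95% intervals of the log2 difference reached up to 0.22, 0.239 and 0.267.

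In mRNA export, one gene of each pair of close relatives rose and the other did not pass the test. DDX19A and DDX19B encode helicases that strip proteins from mRNA at the cytoplasmic face of the nuclear pore, and they lie side by side on the plus strand of chromosome 16, DDX19B at 70289663 to 70335283 and DDX19A at 70346829 to 70373383. DDX19A stood at 16.8, 17.1 and 16.5 FPKM in the control libraries and 24.4, 25.8 and 24.9 FPKM in the labelled knockouts (log2 difference 0.55, SE 0.038, limma adjusted p = 6e-05). DDX19B stood at 17.1, 19.5 and 17.4 FPKM against 16.2, 19.2 and 17.1 FPKM (-0.041, 95% interval -0.219 to 0.137). The log2 ratio of DDX19A to DDX19B was -0.03, -0.18 and -0.07 in the controls and 0.56, 0.41 and 0.52 in the libraries labelled knockout. These ratios did not overlap between the groups, and their change was 0.59. Both genes share exonic bases with the same other annotated gene, AC012184.2 (23.8% of those of DDX19A and 15.7% of those of DDX19B). How any reads that fit both copies were divided was not given, so their division is less certain than their sum (34.8 ± 1.6 and 42.5 ± 2.26 FPKM).

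DDX39B (also called UAP56) and DDX39A load export factors onto mRNA. DDX39B was the most abundant member of all, at 237.1, 245.8 and 231.9 FPKM in the control libraries and 241.6, 237.9 and 234.9 FPKM in the labelled knockouts, and its groups overlapped (log2 difference -0.001, 95% interval -0.071 to 0.07). DDX39A was at 53.3, 49.9 and 51.5 FPKM against 69.0, 65.4 and 59.1 FPKM, with every labelled knockout above every control (log2 difference 0.32, SE 0.059, limma adjusted p = 0.00383). A read-through gene of ATP6V1G2 and DDX39B, which shares 29.7% of the exonic bases of DDX39B, was listed at 0.372 to 8.81 FPKM over the 6 libraries, a small amount beside DDX39B.

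Ratios within close relatives were compared for 6 pairs with an exact 2-sided permutation test of 3 against 3 libraries, whose smallest p is 0.1. For 5 of them the log2 ratios of the groups did not overlap, which gives p = 0.1 in the exact permutation test and 0.12 after adjustment over the 6 pairs, so no pair could pass. The change was 0.59 for DDX19A over DDX19B, 0.32 for DDX39A over DDX39B, 0.38 for DDX21 over DDX50, -0.29 for DDX5 over DDX17 and -0.30 for DDX3X over DDX3Y. The ratios of DDX60 to DDX60L overlapped (change 0.022, exact permutation p = 0.8, adjusted p = 0.8). DDX50, the nucleolar relative of DDX21, was at 14.3, 15.4 and 16.1 FPKM in the control libraries and 15.1, 16.0 and 16.2 FPKM in the labelled knockouts, with overlapping groups (log2 difference 0.046, 95% interval -0.081 to 0.172).

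**Figure D5:**
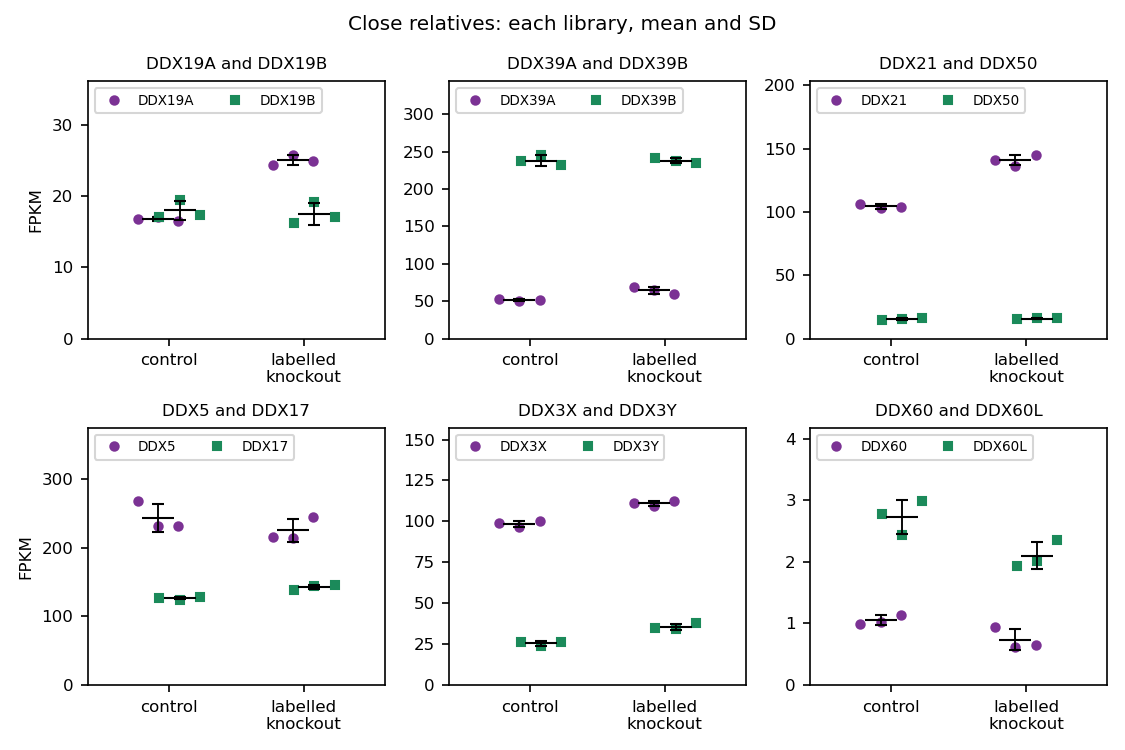
FPKM (y axis, from 0) of both genes of 6 pairs of close relatives in each library of the control and labelled knockout groups, with the mean and SD of 3. DDX19A and DDX19B lie together at means of 16.8 and 18.0 FPKM in the control libraries and apart in the libraries labelled knockout, at 25.0 and 17.5 FPKM; DDX39B stays near 238 FPKM while DDX39A goes from 51.5 to 64.5 FPKM.

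Among nuclear helicases that act in transcription and in remodelling RNA-protein complexes, 3 of 4 rose. DHX9, or RNA helicase A, which unwinds long duplexes such as inverted Alu repeats, was at 73.7, 69.8 and 70.9 FPKM in the control libraries and at 95.9, 96.0 and 95.9 FPKM in the labelled knockouts. It rose by 0.42 on the log2 scale (SE 0.03, limma adjusted p = 6.89e-05), and the groups did not overlap. DDX17 (p72) was at 126.2, 124.3 and 127.3 FPKM against 138.9, 143.6 and 145.0 FPKM, a smaller increase of 0.18 (adjusted p = 0.00185). DDX1, a subunit of the tRNA ligase complex, rose by 0.17. DDX5 (p68), the close relative of DDX17, a transcriptional coregulator and the second most abundant member, stood at 267.0, 231.6 and 230.9 FPKM in the control libraries and 215.6, 214.4 and 244.2 FPKM in the labelled knockouts. Those groups overlapped (log2 difference -0.11, 95% interval -0.285 to 0.059). The summed level of DDX5 and DDX17 was 369.1 ± 20.9 FPKM in the control libraries and 367.2 ± 19.1 FPKM in the labelled knockouts.

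Helicases of translation and mRNA decay rose in 5 of 6 cases, and none fell (median log2 difference 0.34). DHX29, which helps the small ribosomal subunit scan structured leaders, was at 14.7, 15.2 and 15.9 FPKM in the control libraries and 21.3, 21.3 and 21.8 FPKM in the labelled knockouts (log2 difference 0.47, SE 0.042, limma adjusted p = 0.000152). DHX34, a factor of nonsense-mediated decay, rose by 0.36, and DDX6, which represses translation and promotes decapping in P-bodies, by 0.31. DHX36, which unwinds G-quadruplexes, was at 13.9, 9.47 and 10.9 FPKM against 10.1, 8.90 and 9.96 FPKM. Control 1 was high and the groups overlapped (log2 difference -0.21, 95% interval -0.502 to 0.09).

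DDX3X and DDX3Y, close copies on the X and Y chromosomes, encode helicases that help translate mRNAs with structured leaders. DDX3X was at 99.0, 96.6 and 100.3 FPKM in the control libraries and 111.3, 109.6 and 112.2 FPKM in the labelled knockouts, an increase of 0.17 on the log2 scale (SE 0.028, limma adjusted p = 0.00208). DDX3Y was at 26.1, 23.7 and 26.5 FPKM against 34.6, 34.5 and 37.6 FPKM, an increase of 0.47 (SE 0.057, adjusted p = 0.000559). No library of one group reached the range of the other in either gene. How any reads that match both copies were divided was not given, and the sum of DDX3X and DDX3Y was 124.1 ± 3.4 and 146.6 ± 2.93 FPKM.

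Of the 2 mitochondrial helicases, both needed for mitochondrial ribosome assembly, 1 rose and 1 fell. DHX30 was at 36.1, 36.9 and 35.7 FPKM in the control libraries and 47.7, 46.6 and 46.8 FPKM in the labelled knockouts (log2 difference 0.37, SE 0.031, limma adjusted p = 0.000124). DDX28 was at 9.48, 9.08 and 8.88 FPKM against 8.50, 8.11 and 8.14 FPKM, and fell by 0.13 on the log2 scale with an adjusted p of 0.0466. The groups did not overlap in either gene, but the call of DDX28 was lost when any library was left out, and its difference was 0.027 once a trend over GC and length was taken out. In GENCODE 29, 22.4% of the exonic bases of DDX28 lie within exons of DUS2 on the opposite strand, and without stated use of strand the reads of both cannot be told apart.

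DDX11, a DNA helicase of sister chromatid cohesion that belongs to another branch of the helicases despite its name, was at 26.3, 25.3 and 26.1 FPKM in the control libraries and 30.9, 30.4 and 32.4 FPKM in the labelled knockouts. It rose by 0.26 on the log2 scale (SE 0.039, limma adjusted p = 0.00133), without overlap between the groups.

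The members that fell were few and of low to moderate level. DHX40, a DEAH helicase of little known function, was at 13.0, 12.4 and 13.2 FPKM in the control libraries and 10.7, 9.64 and 10.0 FPKM in the labelled knockouts (log2 difference -0.32, SE 0.052, limma adjusted p = 0.00201). DDX59, a gene mutated in an orofaciodigital syndrome, was at 10.1, 11.5 and 9.58 FPKM against 8.98, 7.37 and 7.77 FPKM (-0.34, SE 0.088, adjusted p = 0.016). In both genes every labelled knockout lay below every control, and both calls held under each of the 15 alternatives. Of the other less characterised members, DHX57 stood at 6.88 ± 0.343 and 7.60 ± 0.244 FPKM without a call (adjusted p = 0.0841), and DHX32 at 18.8, 18.9 and 18.6 FPKM in the control libraries and 19.3, 18.6 and 19.9 FPKM in the labelled knockouts (log2 difference 0.035, 95% interval -0.059 to 0.129).

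DDX60L, a relative of the interferon-induced antiviral gene DDX60, was the lowest tested member, at 2.77, 2.44 and 2.98 FPKM in the control libraries and 1.94, 2.01 and 2.35 FPKM in the labelled knockouts. The groups lay close together without overlap, and its fall of 0.27 on the log2 scale (limma adjusted p = 0.0382) lost its call without control 1 or 3 or labelled knockout 1 or 2, and under 3 of the rescalings. DDX60 was the 1 member below the filter. It was listed at 0.990, 1.02 and 1.14 FPKM in the control libraries and 0.940, 0.623 and 0.651 FPKM in the labelled knockouts, and without a filter its log2 difference was -0.24 (adjusted p = 0.055).

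Helicases without a DDX or DHX symbol, and protein partners of helicases, were counted in the same fit. Of 19 tested genes of other RNA helicases 12 rose and 1 fell (median log2 difference 0.28). Over all tested genes 25.3% rose and 29.2% fell, with a median of -0.018. ZNFX1 rose from 4.39 ± 0.111 to 7.29 ± 0.513 FPKM (it shares exonic bases with DDX27 on the opposite strand), HELZ by 0.55, the nuclear exosome helicase MTREX from 31.7 ± 0.738 to 43.8 ± 0.636 FPKM, the splicing helicase AQR by 0.44 and IGHMBP2 by 0.42. For AQR labelled knockout 1 was high, at 14.3 FPKM beside 10.1 and 10.3 FPKM in labelled knockouts 2 and 3 (SE 0.121, limma adjusted p = 0.0196). EIF4A2, a DEAD-box translation initiation factor, was the gene that fell, from 344.9 ± 3.82 to 277.7 ± 2.88 FPKM. Its close relative EIF4A1 stood at 712.9 ± 25.1 and 725.4 ± 133.0 FPKM without a call.

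G-patch proteins are named after a glycine-rich motif, through which some of them activate DEAH helicases. Among 23 of them 11 rose and 1 fell (median 0.11), beside 25.3% and 29.2% of all tested genes. GPATCH4, a nucleolar member, rose from 19.2 ± 0.728 to 33.7 ± 1.54 FPKM, a log2 difference of 0.78 (SE 0.048, limma adjusted p = 3.91e-05) that exceeded that of every tested DDX or DHX gene. SON, a splicing cofactor, rose by 0.44, the DHX15 partner NKRF by 0.43, GPATCH2L by 0.32 and TFIP11, which recruits DHX15 for spliceosome disassembly, by 0.26. The number that rose was 8 without labelled knockout 1 or 3 each, and 7 without labelled knockout 2.

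Of 17 proteins with an MIF4G domain and other helicase partners, which include activators and inhibitors, 10 rose and 2 fell (median 0.18). The shares over all tested genes were 25.3% and 29.2%. PDCD4, an inhibitor of the eIF4A helicase, fell from 41.9 ± 1.69 to 26.6 ± 0.841 FPKM (log2 difference -0.64, SE 0.043, limma adjusted p = 5.37e-05). EIF4G1, the scaffold that activates eIF4A, rose from 130.6 ± 0.71 to 184.8 ± 6.75 FPKM. The nucleolar scaffold NOM1 rose by 0.42, the splicing factor CWC22 by 0.41 and the cap-binding protein NCBP1 by 0.41. GLE1, which activates the DDX19 helicases at the pore, stood at 27.4 ± 0.45 and 26.9 ± 1.43 FPKM without a call.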

How the data were processed

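HCT15 RNA was sequenced as 3 control and 3 sgRBM15 libraries, grouped by their titles. The authors deposited FPKM, per the file headers. HISAT2 2.2.1 and StringTie 2.0.4 with hg38 were used per the submitters' processing notes. Tool settings, annotation, strand use and row filter were not given in the sources used here. Low values were searched for steps of whole reads (at most 0.93% of ratios below 0.5 FPKM fell within a window 0.1% wide), so depth is unknown and precision rests on the spread of 3 libraries. Columns summed to 402288 to 415057 FPKM. Log2 levels correlated at 0.990 to 0.992 within and 0.969 to 0.972 between groups.

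limma 3.58.1 (R 4.3.3) fitted the 2 groups on log2(FPKM + 1) with a variance trend over 11451 genes averaging 1 FPKM or more. P-values are 2-sided and Benjamini-Hochberg adjusted over all of these. The fit was tested on simulated data with independent genes, few of them changed. In the real data 54.5% of tested genes were called, so that test does not measure error rates here. Python 3.11.15, pandas 2.3.3, numpy 2.4.6 and matplotlib 3.10.9 made tables and figures. Coordinates and exon overlaps are from GENCODE 29 (GRCh38); 16 members share exonic bases with another listed gene, and FPKM of such genes and of similar copies depend on how reads were divided.

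The members, the role groups and the partner lists were chosen with earlier results of these data known, so their direction is not independent evidence. Values in every library are given for the 12 called members with the largest differences, the most abundant member of each role group and the 6 close pairs; DDX28, DDX47, DDX59, DHX36, DHX40 and APOLD1 were added after their values were seen. From each partner list up to 5 called genes with the largest difference are named; EIF4A2, which fell, and EIF4A1 and GLE1, without a call, were added after their values were seen. The motifs were chosen after the expression values were seen. The 15 alternatives changed the pseudocount (0.1), the filter (none, or 5 FPKM), the scaling (quantiles, column medians, or a common sum, called TPM scale), the variance trend (none) or the design (a replicate block), took out a trend over GC and length, or omitted 1 library.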

Additional observations from a re-analysis of the deposited data

How the results depend on the processing

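Between 28 and 33 members rose under the 15 alternatives, against 32 as reported, and 26 of the 32 kept their call under each of them. The 6 that lost it under at least 1 are DDX31, DDX41, DDX49, DDX51, DDX54 and DDX56. The number that fell went from 4 to 2 under quantile normalization, median centring and the TPM scale alike, and to between 2 and 3 when single libraries were left out; DHX40 and DDX59 kept their calls throughout. DHX8, DHX16 and DHX57, without a call, passed under at least 1 alternative.

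The median log2 difference of the members was 0.211 with a pseudocount of 0.1, 0.192 with no filter, 0.201 with the filter raised to 5 FPKM, 0.226 with quantile normalization and with median centring, 0.230 on the TPM scale, 0.246 once a trend over GC and length was taken out, and 0.187 to 0.203 when single libraries were left out. Median centring moves all genes of a library alike. With it 3239 of all tested genes rose and 3044 fell, against 2896 and 3349 as reported. Without labelled knockout 1 the median of the members stayed at 0.198, while the other shifts listed exceeded 0.0028. That value is the SD, between libraries of a group, of the members' median level after centring each gene. It is not the spread of a difference between groups. None of the shifts turned the direction of the median. DDX39B, with no call, was at 0.008 with quantile normalization, 0.027 with median centring and 0.024 on the TPM scale. Its lowest value was -0.034, once the GC and length trend was taken out. When single libraries were left out it was between -0.02 (without control 3) and 0.022 (without control 2), with 0.009 without labelled knockout 3. DDX19B was between -0.107 (without labelled knockout 2) and 0.016 (without control 2), with 0.009 without labelled knockout 1. DDX47 was between -0.416 (without labelled knockout 3) and 0.256 (without labelled knockout 2), with 0.007 without control 3. DDX28 was at 0.027 once the GC and length trend was taken out; the cause was not tested. DDX60L could not be fitted with the filter at 5 FPKM.

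Over all genes the number that rose was 2493 to 3438 and the number that fell 2543 to 3633 over the alternatives; 2543 is with the filter at 5 FPKM, which tests fewer genes. Replicate numbers do not mark a shared batch in the labels: deviations of same-numbered libraries correlated at -0.035, -0.037 and 0.0, and with the number as a block 30 members rose and 3 fell. With 3 libraries a group and unknown depth, the smallest rise among the members that passed was 0.092 on the log2 scale (DDX54, mean 38.7 FPKM). The limit differed between genes. DHX57 at 0.127 (mean 7.24 FPKM) and DHX36 at -0.206 (mean 10.5 FPKM) did not pass.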
